A study of Mus musculus with 2 samples.

Results

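Cholesterol synthesis and its sterol sensor were followed through 8 genes, Hmgcs1, Idi1, Fdps, Sqle, Lss, Cyp51, Msmo1 and Insig1, in single cells from the nasal tissue of mice. The genes were matched by symbol, and the set was chosen with earlier results of these data known. All 8 were found among the 56953 genes of the count tables. The data come from 2 male wildtype C57BL/6J mice, called mouse 1 and mouse 2, with 1 droplet library each of tissue labelled olfactory epithelium; no age, treatment or second genotype is given, so the comparisons are between kinds of cell within the mice.

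A cell makes cholesterol from acetyl-CoA through the mevalonate pathway, which yields farnesyl diphosphate, then squalene, lanosterol and at last cholesterol. Cells also take cholesterol up from lipoproteins in the blood. When sterols run low in the endoplasmic reticulum, INSIG proteins release SCAP and the membrane-bound transcription factor SREBP2, which is cut in the Golgi and switches on the genes of synthesis and uptake together; INSIG1 itself is a target, so the loop closes on itself. Myelin is rich in cholesterol that Schwann cells make on the spot, while cartilage has no blood vessels.

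Hmgcs1 encodes the cytosolic HMG-CoA synthase of the mevalonate pathway, Idi1 the isopentenyl diphosphate isomerase and Fdps the farnesyl diphosphate synthase. Sqle encodes squalene epoxidase, the first oxygen-dependent step of sterol synthesis, Lss the lanosterol synthase that closes the sterol rings, and Cyp51 and Msmo1 an oxidase each that strips methyl groups from lanosterol and its products. Insig1 encodes the sterol-regulated anchor of SCAP. Of the 8 genes, 6 had a promoter in the RefSeq table used here (GRCm38.p6), and 4 of these are printed to show the letters through which the pathway is known to be read: the 250 bases before the gene start, 5′ to 3′ on the gene's own strand, with capitals for the sterol regulatory element TCACNCCAC and for the CCAAT box bound by NF-Y, a partner of SREBP, each searched on both strands. They lie at chr13:119690101-119690350 (plus strand) for Hmgcs1, chr13:8885356-8885605 (plus strand) for Idi1, chr8:64733579-64733828 (minus strand) for Msmo1 and chr5:28071162-28071411 (plus strand) for Insig1.
Hmgcs1: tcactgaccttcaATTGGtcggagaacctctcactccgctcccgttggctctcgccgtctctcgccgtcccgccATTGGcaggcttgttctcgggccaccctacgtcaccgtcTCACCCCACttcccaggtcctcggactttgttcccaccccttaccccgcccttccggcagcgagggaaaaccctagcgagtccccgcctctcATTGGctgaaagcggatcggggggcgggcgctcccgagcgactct
Idi1: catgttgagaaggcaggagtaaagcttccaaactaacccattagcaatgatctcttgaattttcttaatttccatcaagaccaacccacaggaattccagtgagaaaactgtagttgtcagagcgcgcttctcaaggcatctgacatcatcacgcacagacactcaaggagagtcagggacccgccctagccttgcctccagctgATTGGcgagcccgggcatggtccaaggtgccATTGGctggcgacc
Msmo1: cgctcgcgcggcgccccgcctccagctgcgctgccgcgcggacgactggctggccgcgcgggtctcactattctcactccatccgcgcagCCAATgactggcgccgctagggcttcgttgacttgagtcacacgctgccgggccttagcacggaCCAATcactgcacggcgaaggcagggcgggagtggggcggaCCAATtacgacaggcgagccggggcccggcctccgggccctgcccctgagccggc
Insig1: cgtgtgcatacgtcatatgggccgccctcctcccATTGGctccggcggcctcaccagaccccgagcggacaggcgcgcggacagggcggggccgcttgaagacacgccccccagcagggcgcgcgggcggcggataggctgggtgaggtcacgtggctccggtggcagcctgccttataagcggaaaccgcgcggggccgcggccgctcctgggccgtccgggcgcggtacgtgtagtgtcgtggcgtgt
The Hmgcs1 promoter held 1 sterol regulatory element, its first base 137 bases before the start, and 3 CCAAT boxes. The element was in 1 of the 6 promoters, against 1.05% of the 32851 promoters in the table. A CCAAT box was in 6 of 6, against 33.8% of all promoters, with 3 in Msmo1, 2 in Idi1 and 1 each in Insig1, Cyp51 and Lss. These are matches of letters only: a diverged element is not found by this search.

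The libraries gave 21467 cells after filtering, 12537 from mouse 1 and 8930 from mouse 2, with median counts of 3908 and 5234.5 UMIs (unique molecular identifiers) per cell. Clustering without the 8 genes gave 25 clusters; 20 of them, with at least 20 cells in each mouse and a name from their markers, formed 13 classes. Chondrocyte-like cells made up 40.5% and 34.4% of cells in mouse 1 and mouse 2, and fibroblast-like cells 33.8% and 38.9%. Defining cells of the labelled tissue were not found: no cluster was led by markers of mature olfactory neurons or of sustentacular cells, and the 5 sustentacular markers summed to at most 4.84 CPM (the UMIs of a gene over all UMIs, on the counts-per-million scale) in any class, the 5 neuron markers to at most 86.9 CPM. The libraries shared 400 cell barcodes; without them 6 of 7 tested genes were higher in chondrocyte-like than in fibroblast-like cells, as many as with them.

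Levels below are in CPM, over all cells of a class in one mouse. The 8 genes were highest, as a set, in the Schwann-like class, whose leading genes included the myelin gene Mbp. By the mean over the mice, it ranked first of 13 classes for 6 of the 8 genes and second for the other 2. The chondrocyte-like class ranked second for 5. For Fdps, counted among the 6, the Schwann-like class was first in neither mouse alone. Its second place for Lss rests on 2 and 4 UMIs. Summed over the 8 genes, the level was 727.4 CPM in mouse 1 and 691.2 CPM in mouse 2 for Schwann-like cells. It was 478.3 and 393.6 CPM for chondrocyte-like cells. Keratin-positive epithelial cells, 35 and 36 in number, had 335.4 and 515.9 CPM, above the chondrocyte-like class in mouse 2. The same sum was 203.5 and 102.4 CPM in fibroblast-like cells and 102.9 and 82.4 CPM in lymphatic endothelial-like cells, the class with the lowest mean.

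**Figure D1:**
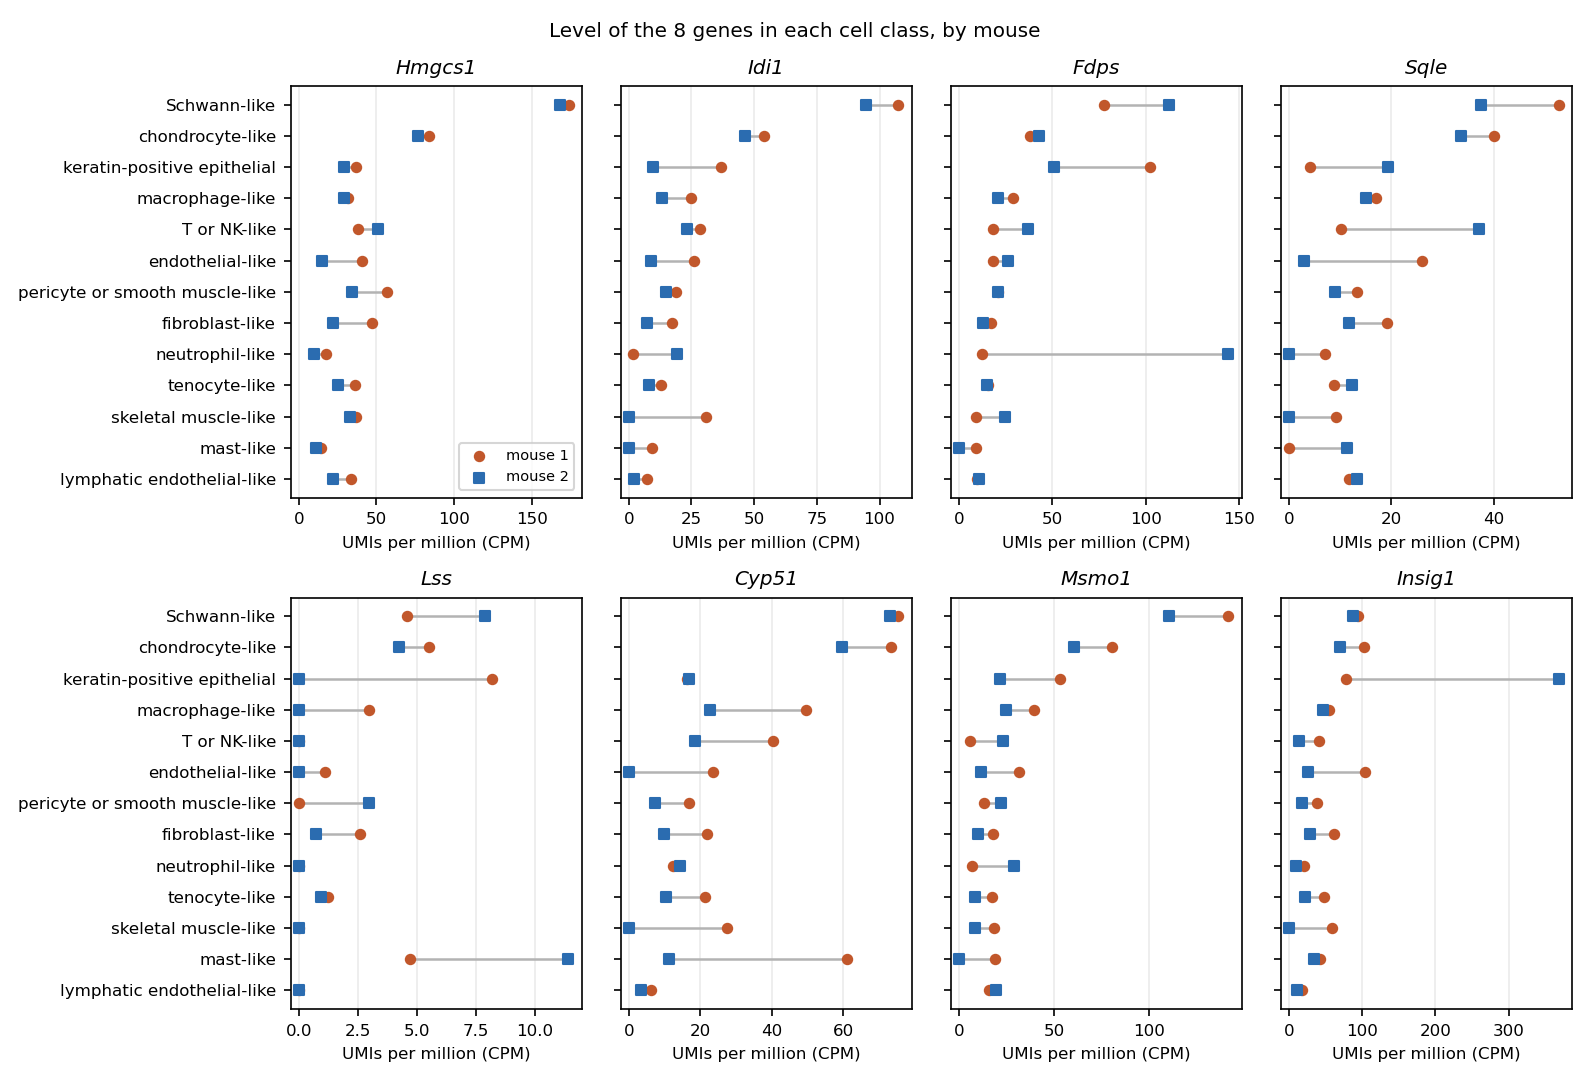
Level of each of the 8 genes in the 13 cell classes, in CPM (linear axes that differ between panels); circles are mouse 1, squares mouse 2, and the grey line joins them. By the mean over the mice, Schwann-like cells, in the top row, were highest for 6 genes. Insig1 had its highest mean in the keratin-positive epithelial class, where the mice stood apart at 77.7 and 368.1 CPM. In mouse 1 alone it was higher in endothelial-like (103.6 CPM), chondrocyte-like (103.0 CPM) and Schwann-like cells (93.8 CPM).

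Among the genes of the mevalonate pathway, Hmgcs1 stood at 173.9 CPM in mouse 1 and 167.9 CPM in mouse 2 in Schwann-like cells. Its level was 83.9 and 76.6 CPM in chondrocyte-like cells, and 46.9 and 22.1 CPM in fibroblast-like cells. The mice of the Schwann-like class lay above both mice of every other class, and those of the chondrocyte-like class above both mice of all classes but that one. Idi1 followed the same order, with 107.5 and 94.8 CPM in Schwann-like cells, 54.1 and 46.4 CPM in chondrocyte-like cells and 17.1 and 7.28 CPM in fibroblast-like cells. Its Schwann-like level was 2.01 times the chondrocyte-like level and 8.30 times the fibroblast-like level, as ratios of the means over the mice. Fdps broke the order. It had 77.8 and 112.6 CPM in Schwann-like cells and 102.3 and 50.9 CPM in keratin-positive epithelial cells, which overlap, and 38.0 and 42.7 CPM in chondrocyte-like cells. Neutrophil-like cells had 12.3 CPM (7 UMIs) in mouse 1 and 144.2 CPM (30 UMIs, 24 cells) in mouse 2, so that their place in the order rests on mouse 2.

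Of the sterol-forming steps, Msmo1 had 141.8 CPM in mouse 1 and 110.6 CPM in mouse 2 in Schwann-like cells. The values were 80.4 and 60.8 CPM in chondrocyte-like cells and 18.1 and 9.87 CPM in fibroblast-like cells. The mice of these 3 classes did not overlap, and the Schwann-like level was 9.03 times the fibroblast-like level as a ratio of means. It was 7.85 times in mouse 1 and 11.2 times in mouse 2, where Idi1 had 6.29 and 13.02 times. Cyp51 and Sqle did not separate the top classes. Cyp51 had 75.5 and 73.1 CPM in Schwann-like cells against 73.5 and 59.8 CPM in chondrocyte-like cells, and Sqle 52.6 and 37.5 CPM against 40.0 and 33.6 CPM; in both genes the ranges overlap. Lss was sparse everywhere, with 215 and 155 UMIs in all chondrocyte-like cells of mouse 1 and mouse 2 (5.53 and 4.26 CPM) and 2 and 4 UMIs in Schwann-like cells. Its class order rests on a few molecules, the mast-like class being on top with 1 UMI in each mouse, and Lss failed the filter on low counts and was not tested between classes.

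Insig1, the sensor, followed another order. In the keratin-positive epithelial class it had 77.7 CPM in mouse 1 (19 UMIs) and 368.1 CPM in mouse 2 (152 UMIs), from 35 and 36 cells. In Schwann-like cells it had 93.8 and 86.9 CPM, and in chondrocyte-like cells 103.0 and 69.4 CPM, so that all 3 classes overlap. Endothelial-like cells had 103.6 CPM in mouse 1, the highest class of that mouse, and 26.5 CPM in mouse 2. Fibroblast-like cells had 60.9 and 28.2 CPM.

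Each of the 13 classes was then compared with the mean of the other 12, over counts summed per mouse and class, with the mouse as a block; a change is called at an adjusted p under 0.05 over the 6745 genes tested. In Schwann-like cells 6 of the 7 tested genes were higher, where 11.0% of all tested genes were higher. The log2 fold change was 2.68 ± 0.32 for Idi1 (standard error; adjusted p = 2.2e-07), 2.51 ± 0.30 for Msmo1 and 2.29 ± 0.25 for Hmgcs1. It was 1.95 ± 0.34 for Fdps, 1.86 ± 0.35 for Cyp51 and 1.74 ± 0.45 for Sqle. Insig1 missed the threshold there, at 0.96 ± 0.46 (adjusted p = 0.205). In chondrocyte-like cells 7 of 7 were higher, where 16.4% of all tested genes were higher, from 0.83 ± 0.29 for Fdps (adjusted p = 0.0369) to 1.90 ± 0.27 for Cyp51 (adjusted p = 2.31e-06). The calls of Insig1 and Fdps were lost without the mouse as a block (adjusted p = 0.128 and 0.0865) and with all barcodes of at least 1000 UMIs (0.118 and 0.0521), and that of Insig1 also with DESeq2 (0.0641) and at 2000 UMIs (0.0564).

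Lower calls came from the lymphatic endothelial-like class. Cyp51, Idi1, Insig1 and Fdps were lower, 4 of 7, where 4.36% of all tested genes were lower in that class. Cyp51 had 6.36 and 3.30 CPM there and a log2 fold change of -2.48 ± 0.56 (adjusted p = 0.00167). Idi1 was at -2.11 ± 0.55, Insig1 at -1.93 ± 0.59 and Fdps at -1.50 ± 0.48. Without the mouse as a block Fdps (adjusted p = 0.053) and Insig1 (0.0638) did not pass, nor did Insig1 with doublets kept (0.162) or with all barcodes of at least 1000 UMIs (0.113). Immediate early genes, which enzymatic digestion is known to raise, differed between the mice in this class, with a summed level of 9301 CPM in mouse 1 and 2365 CPM in mouse 2; their part in the result was not tested.

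Smaller classes each had 1 or 2 calls among the 7 tested genes. In neutrophil-like and macrophage-like cells the 1 call of 7 was no larger a share than that of all tested genes. Keratin-positive epithelial cells were higher for Insig1 (3.24 ± 0.40, adjusted p = 4.74e-07) and Fdps (2.05 ± 0.40, adjusted p = 0.000387), where 11.9% of all tested genes were higher; the Insig1 difference was 0.72 in mouse 1 alone and 4.85 in mouse 2 alone. Neutrophil-like cells were higher for Fdps (1.95 ± 0.43, adjusted p = 0.000872), where 17.5% were higher. They had 12.3 CPM (7 UMIs, 164 cells) in mouse 1 and 144.2 CPM (30 UMIs, 24 cells) in mouse 2, so that mouse 1 alone gave 0.28 and mouse 2 alone 3.05. In this class proliferation markers summed to 47.6 CPM in mouse 1 and 624.8 CPM in mouse 2. Immediate early genes summed to 4521 and 1009 CPM there. The part of either in the result was not tested. The fit estimates the spread of a gene over all 13 classes together. Its standard errors and adjusted p therefore do not measure how far the mice stood apart in 1 class. Macrophage-like cells were higher for Cyp51 (1.02 ± 0.35, adjusted p = 0.0369), where 17.2% were higher. That call was lost under 8 alternative settings: DESeq2, its size factors, no block for the mouse, at most 10% mitochondrial UMIs, doublets kept, clustering resolutions of 0.5 and 2, and barred clusters put back, with an adjusted p from 0.0525 to 0.19. In the remaining 7 classes, fibroblast-like cells included, edgeR made 0 calls in 49 tests, with 8 at an unadjusted p under 0.05 and 2 calls by DESeq2. Of all tested genes, 16.5% passed in either direction in fibroblast-like cells, 16.9% in T or NK-like, 14.2% in tenocyte-like, 13.9% in pericyte or smooth muscle-like, 13.4% in skeletal muscle-like, 11.5% in mast-like and 9.21% in endothelial-like cells.

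**Figure D2:**
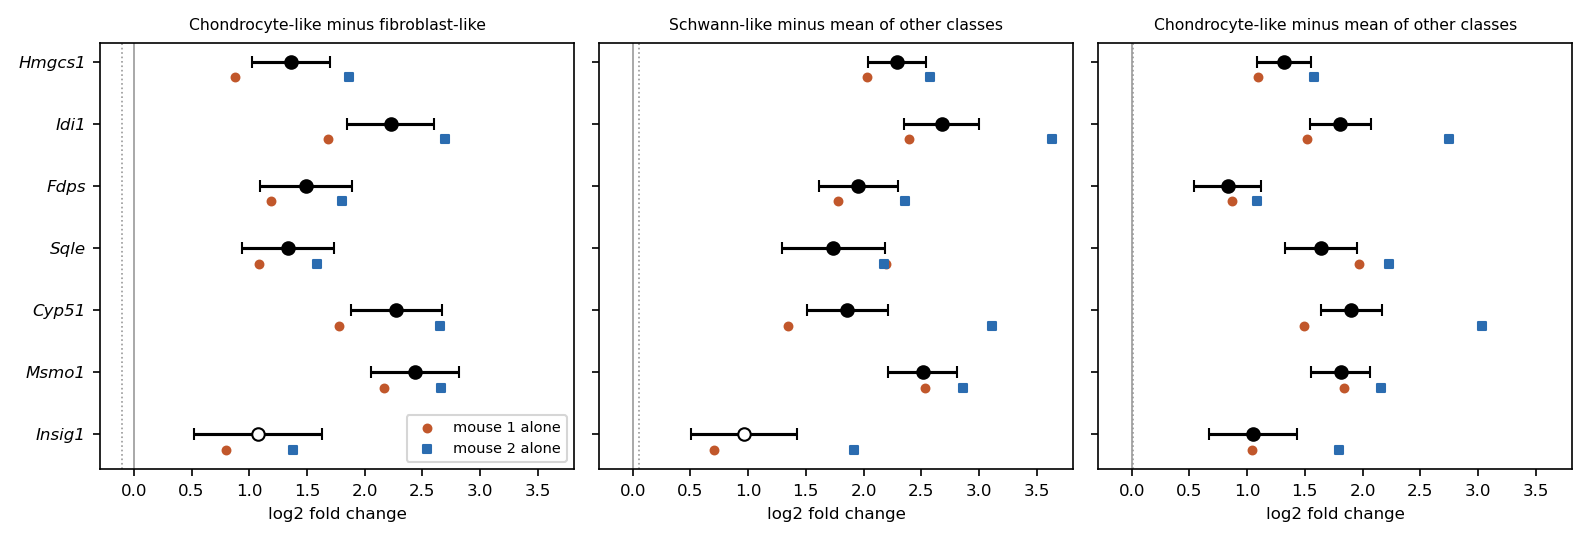
Log2 fold changes of the 7 tested genes in 3 comparisons; black points with bars are the fitted value and its standard error (filled where the adjusted p is under 0.05), coloured points the value in each mouse alone without a test, and the dotted line the median of all tested genes. All black points lie above 0, with Insig1 the open one in the left and middle panels, at 1.08 and 0.96.

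Set directly against fibroblast-like cells, chondrocyte-like cells were higher for 6 of the 7 tested genes, where 12.0% of all 6745 tested genes were higher and 12.9% lower. The largest were in Msmo1 and Cyp51, at 2.44 ± 0.38 (adjusted p = 1.37e-05) and 2.27 ± 0.40, and in Idi1, at 2.23 ± 0.38. Fdps was at 1.49 ± 0.40, Hmgcs1 at 1.36 ± 0.34 and Sqle at 1.34 ± 0.40 (adjusted p = 0.0123). Insig1 did not pass, at 1.08 ± 0.55 (adjusted p = 0.173). Both mice showed the direction in all 7 genes, with the median over the genes at 1.19 in mouse 1 and 1.87 in mouse 2. The gap between the mice lay in the fibroblast-like cells, where the 8 genes summed to 203.5 CPM in mouse 1 and 102.4 CPM in mouse 2. Immediate early genes summed to 5495 and 3711 CPM in the same cells, and to 8256 and 8132 CPM in chondrocyte-like cells; their part in the result was not tested.

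Depth per cell differed between the classes, with medians of 6842 and 10910 UMIs in chondrocyte-like cells and 2670 and 3470.5 UMIs in fibroblast-like cells. Cells were therefore also thinned to 1000 UMIs each. A UMI of at least 1 of the 8 genes was then found in 39.7% of Schwann-like cells in mouse 1 (95% Clopper-Pearson interval 32.0 to 47.9%) and 43.6% in mouse 2 (34.4 to 53.1%), against 60.3% and 70.9% before thinning. The shares were 30.3% (29.1 to 31.6%) and 25.4% (23.9 to 27.0%) in chondrocyte-like cells, against 68.0% and 74.4% before. They were 17.2% (16.1 to 18.4%) and 8.98% (8.05 to 9.98%) in fibroblast-like cells, against 35.7% and 26.5% before. At equal depth the order Schwann-like, chondrocyte-like, fibroblast-like held in each mouse, and these intervals cover counting error only. Keratin-positive epithelial cells, 35 and 36 in number, had 31.4% (16.9 to 49.3%) and 27.8% (14.2 to 45.2%). Their shares lay above the chondrocyte-like shares in each mouse, with intervals that contain those shares. Lymphatic endothelial-like cells had 7.25% and 8.25%, with median depths of 3229 and 3867.5 UMIs, and tenocyte-like cells had 12.1% and 6.32%.

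Free RNA adds UMIs to every droplet. In barcodes of at most 50 UMIs, Hmgcs1 had 81.9 CPM in mouse 1 and 59.1 CPM in mouse 2, and Msmo1 56.6 and 43.8 CPM. Insig1 had 127.4 and 99.9 CPM, above its Schwann-like and its chondrocyte-like level in each mouse. All 8 genes were higher in these barcodes than in fibroblast-like cells of the same mouse. Against chondrocyte-like cells, Hmgcs1 was at 81.9 against 83.9 CPM in mouse 1 and Fdps at 38.7 against 38.0 CPM. Col2a1, the cartilage collagen, had 3533 and 3225 CPM in the same barcodes. The part of free RNA in the levels was not tested.

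**Figure D3:**
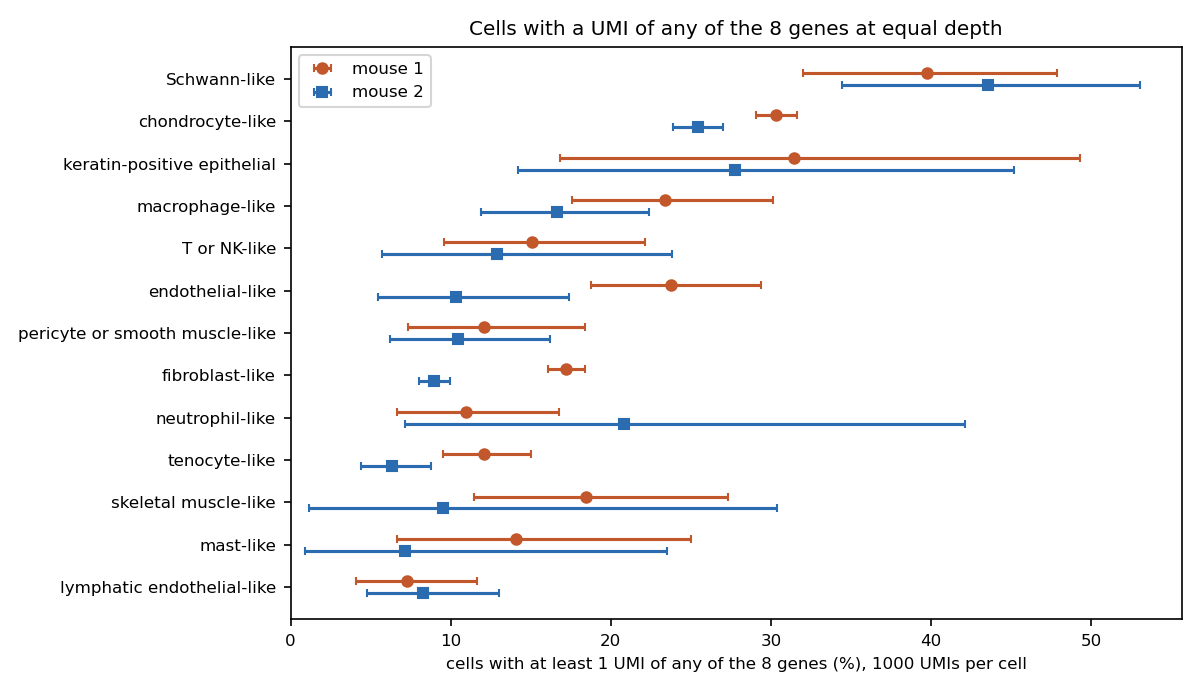
Share of cells with at least 1 UMI of any of the 8 genes after each cell was thinned to 1000 UMIs, by class and mouse, with 95% Clopper-Pearson intervals (counting error only). The Schwann-like class was at 39.7% and 43.6%, the chondrocyte-like class at 30.3% and 25.4% and the fibroblast-like class at 17.2% and 8.98%.

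Within the chondrocyte-like cells, 5 clusters were compared, each with the mean of the other 4, over 9275 genes, a fit in which all 8 genes passed the filter. Of 40 tests 13 passed, 6 higher and 7 lower, and these 13 fell on clusters 7 and 10. Without the mouse as a block 8 tests passed. Cluster 7 was the Col10a1-positive cluster, Col10a1 being the collagen of hypertrophic cartilage, with 1072 CPM in mouse 1 and 892.8 CPM in mouse 2, where the next cluster had 119.5 and 82.3 CPM. Cluster 10 was led by Slpi, Pde4c, Rtn2 and Atic. Clusters 1 (led by Il11 and Col2a1), 2 (Gpha2, Camk2b, Cemip) and 6 (Bmp2, Msmp, Enpp1) had 0 calls in 24 tests by edgeR, with 8 at an unadjusted p under 0.05 and 2 calls by DESeq2, both in cluster 1. Of all tested genes 2.1%, 2.95% and 0.636% passed in clusters 1, 2 and 6. In cluster 1 Idi1 and Sqle came nearest, at 0.71 ± 0.21 and 0.73 ± 0.21 (adjusted p = 0.058 each).

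In cluster 7, 5 of 8 genes were higher, where 6.43% of all tested genes were higher; 2 were without the mouse as a block. Msmo1 had 110.7 and 82.2 CPM in cluster 7 and a log2 fold change of 1.06 ± 0.19 (adjusted p = 8.33e-05). Insig1 was at 1.03 ± 0.32, Fdps at 0.94 ± 0.23, Idi1 at 0.87 ± 0.21 and Hmgcs1 at 0.59 ± 0.20 (adjusted p = 0.0447). The call of Insig1 was lost with DESeq2 (adjusted p = 0.0952) and that of Hmgcs1 without the filter on low counts (0.0777). Fdps, at 58.3 and 56.2 CPM, lay above both mice of every other chondrocyte-like cluster, as did Hmgcs1, at 99.9 and 89.5 CPM. Sqle did not pass in cluster 7, at 0.18 ± 0.22 (adjusted p = 0.707), and its levels, 38.4 and 29.6 CPM, lay below those of clusters 1 (48.8 and 46.0 CPM) and 6 (53.3 and 38.8 CPM). Lss (0.72 ± 0.36) and Cyp51 (0.40 ± 0.22) did not pass either.

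Cluster 10 ran the other way. Of the 8 genes 7 were lower, where 9.76% of all tested genes were lower, and Lss was higher, where 17.9% were higher. The 1 higher call of 8 was thus no larger a share than that of all tested genes. Idi1 had 25.1 CPM in mouse 1 and 13.3 CPM in mouse 2 in cluster 10, against a lowest value of 34.5 CPM in the other 4 clusters, and a log2 fold change of -1.88 ± 0.27 (adjusted p = 5.21e-07). Insig1 was at -1.53 ± 0.40, Msmo1 at -1.49 ± 0.24, Cyp51 at -1.16 ± 0.26 and Sqle at -1.0 ± 0.26. Hmgcs1 was at -0.82 ± 0.22 and Fdps at -0.72 ± 0.28 (adjusted p = 0.0474). Both missed the threshold without the mouse as a block (0.0529 and 0.127). The fold changes come from scaled library sizes (TMM, a step of edgeR), while CPM is over all UMIs, so the 2 can differ. In CPM, Fdps was lowest in cluster 10 only in mouse 2, at 24.4 CPM. In mouse 1 it had 39.4 CPM there, above clusters 1 (32.2 CPM), 2 (28.5 CPM) and 6 (38.9 CPM). Lss had 21.3 CPM (61 UMIs) and 9.25 CPM (30 UMIs) there, where cluster 7, the next, had 7.24 and 5.53 CPM, and a log2 fold change of 1.58 ± 0.36 (adjusted p = 0.00091). Exons of Lss overlap an antisense gene, 4930483K19Rik, and no source used here states whether the counting used strand. The same holds for Hmgcs1, Idi1 and Cyp51, whose exons overlap Gm48342, Gm48574 and Akap9 on the other strand, and Fdps shares exon sequence with Gm43738 on its own strand (GENCODE vM21). Copies of Idi1, mostly the pseudogene Idi1-ps1, were counted apart, with 635 UMIs against 4577 for Idi1.

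**Figure D4:**
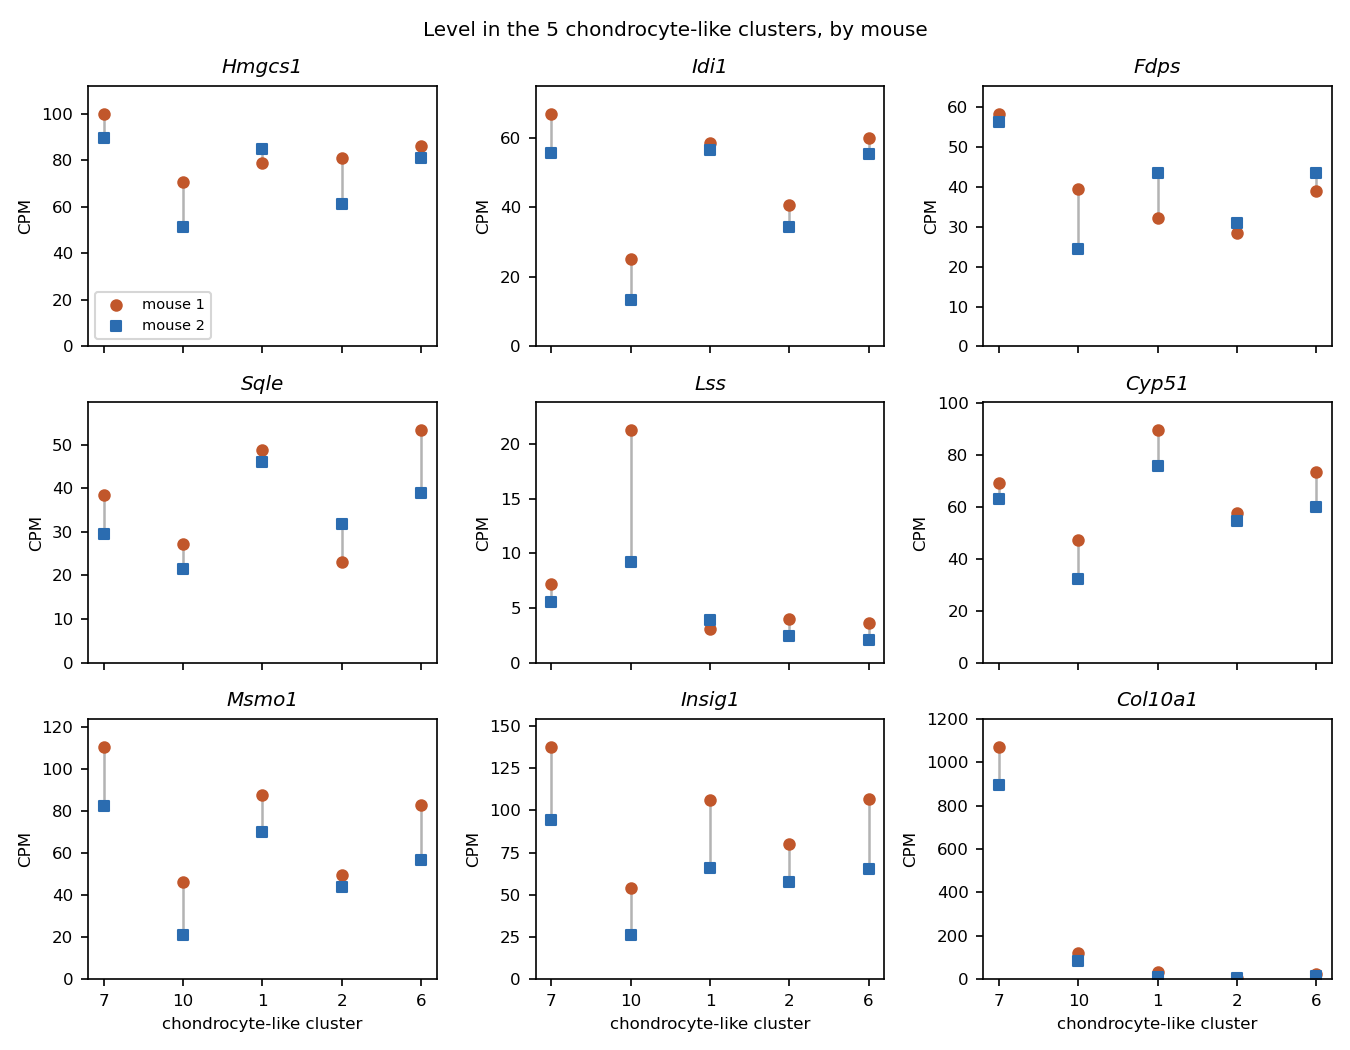
Level of the 8 genes and of Col10a1 in the 5 chondrocyte-like clusters, in CPM on linear axes from 0; circles are mouse 1 and squares mouse 2. Cluster 7 is the Col10a1-positive cluster, at 1072 and 892.8 CPM, and cluster 10 is lowest for Idi1, at 25.1 and 13.3 CPM, and highest for Lss, at 21.3 and 9.25 CPM.

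The depth of the clusters differed too. Median UMIs per cell were 10432.5 and 15976 in cluster 7 and 6370 and 9228 in cluster 10, and between 3922 and 11937 in the other 3. After thinning to 1000 UMIs, 33.2% and 29.8% of cluster 7 cells had a UMI of any of the 8 genes, 24.0% and 14.5% of cluster 10 cells, and 33.8% and 32.6% of cluster 1 cells. Proliferation markers summed to 55.7 and 21.9 CPM in cluster 10 and to between 2.29 and 15.1 CPM in the other 4 clusters; their part in the result was not tested.

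Among the 4 fibroblast-like clusters, compared in the same way, 2 of 32 tests passed, both in cluster 0, which was led by Ifi205, Cxcl1 and Has1 and where 7.36% of all tested genes were higher. Cyp51 had 30.1 and 14.3 CPM in cluster 0 (log2 fold change 1.05 ± 0.28, adjusted p = 0.00991) and Idi1 23.4 and 10.5 CPM (1.01 ± 0.28, adjusted p = 0.0134). The mice of cluster 0 overlapped those of other fibroblast-like clusters, as mouse 1 was higher than mouse 2 in each of the 4 for both genes. Both calls were lost without the mouse as a block. The other 3 clusters had 0 calls in 24 tests by edgeR and 0 by DESeq2, with 4 at an unadjusted p under 0.05, where 4.67%, 9.68% and 4.79% of all tested genes passed in clusters 3, 4 and 8.

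A further 52 genes of the pathway and its neighbours were read by role. In the comparison of chondrocyte-like with fibroblast-like cells 46 of them were tested, with 14 higher and 6 lower, where 12.0% and 12.9% of all tested genes were higher and lower. The share of lower genes was thus close to that of all genes. Of the other synthesis genes 4 of 11 tested were higher, among them Pmvk (1.84 ± 0.38), Fdft1, the squalene synthase (1.61 ± 0.35), and Sc5d (1.24 ± 0.40). The median over the 11 was 0.49, beside -0.10 over all tested genes. Srebf2, which encodes SREBP2, was the one of 7 sensing genes to pass (1.36 ± 0.42, adjusted p = 0.0151; 124.5 and 108.8 CPM against 63.4 and 35.5 CPM). That 1 of 7 was close to the share of all tested genes that were higher.

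Uptake genes were higher for 5 of 10 tested and lower for 1. Lrp8, a lipoprotein receptor that binds apolipoprotein E and reelin, had 47.3 CPM in mouse 1 and 38.2 CPM in mouse 2 in chondrocyte-like cells, against 3.63 and 2.72 CPM in fibroblast-like cells (3.82 ± 0.41). Stard4, a sterol carrier, was at 2.77 ± 0.36. Lipa, the lysosomal lipase that frees cholesterol from lipoproteins, was lower, at -1.94 ± 0.38. The efflux list also holds the LXR receptors that drive efflux, an esterifying enzyme and sterol hydroxylases. It was lower for 5 of 8 and higher for 1, so the count is not one of efflux genes alone. The exception, named after its value was seen, was Apoe, the apolipoprotein that carries cholesterol, with 2720 and 3151 CPM in chondrocyte-like cells against 666.6 and 794.2 CPM in fibroblast-like cells (2.08 ± 0.71). Cyp27a1, a sterol hydroxylase, had 2.03 and 3.14 CPM in chondrocyte-like cells against 22.3 and 29.7 CPM in fibroblast-like cells (-3.25 ± 0.44). The cholesterol exporter Abca1 was at -1.76 ± 0.54, the LXR receptor Nr1h3 at -1.23 ± 0.38, and the hydroxylase Ch25h, at under 3 CPM in all 4 values, at -2.42 ± 0.71. Of 11 fatty acid genes 3 were higher, Elovl6 (3.35 ± 0.41), Me1 (2.72 ± 0.36) and Scd1 (2.07 ± 0.56).

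**Figure D5:**
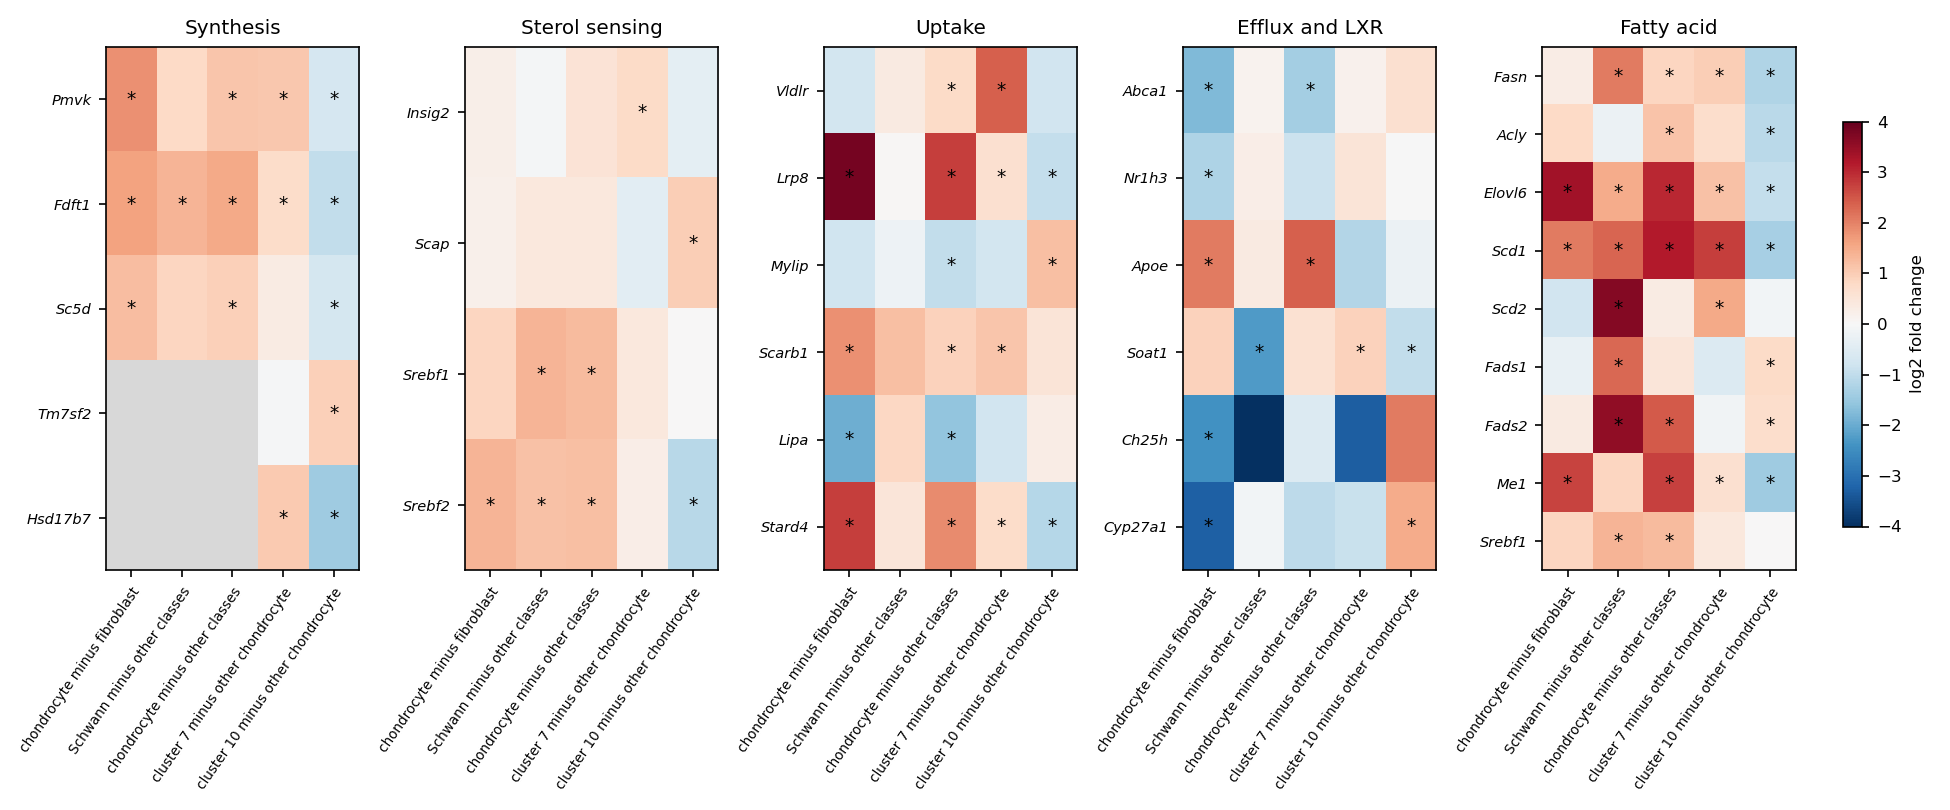
Log2 fold changes of the pathway genes outside the 8 that the text names, by role, in 5 comparisons of classes or chondrocyte-like clusters (colour scale from -4 to 4; stars mark an adjusted p under 0.05, grey cells genes not tested there). Lrp8 stood at 3.82 in chondrocyte-like minus fibroblast-like cells, Scd2 at 3.66 in Schwann-like cells, and Fdft1 at 0.72 in cluster 7 and -0.99 in cluster 10.

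In Schwann-like cells 12 of the 46 pathway genes tested were higher and 2 lower than in the mean of the other classes, where 11.0% of all tested genes were higher and 1.76% lower. Of the fatty acid genes 7 of 11 were higher (median log2 fold change 1.49), Srebf1 counted with them and with the sensing genes; in chondrocyte-like cells the same count was 7 of 11 (median 1.15). Scd2, a stearoyl-CoA desaturase, had 517.0 CPM in mouse 1 and 533.2 CPM in mouse 2, against 49.5 and 57.6 CPM in chondrocyte-like cells and 99.0 and 95.9 CPM in fibroblast-like cells, and a log2 fold change of 3.66 ± 0.29. The desaturases Fads2 (3.55 ± 0.52) and Fads1 (2.29 ± 0.36) and the synthase Fasn (2.08 ± 0.30) were higher too. Fdft1 (1.37 ± 0.31), Srebf1 (1.36 ± 0.34) and Srebf2 (1.19 ± 0.32) were higher. Soat1, which esterifies cholesterol, was lower (-2.26 ± 0.53). The class is small, 156 and 117 cells, and the 5 chondrocyte markers summed to 1771 and 693.1 CPM in it, against 438.0 and 222.5 CPM in fibroblast-like cells; their part in the result was not tested.

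In cluster 7, 18 of 51 tested pathway genes were higher than in the other chondrocyte-like clusters, where 6.43% of all tested genes were higher. Pmvk (1.09 ± 0.19), Hsd17b7 (1.05 ± 0.23) and Fdft1 (0.72 ± 0.20) were among 6 of 14 synthesis genes. Uptake genes passed for 5 of 11, led by the VLDL receptor gene Vldlr (2.38 ± 0.22, adjusted p = 8.47e-11) followed by the HDL receptor gene Scarb1 (1.11 ± 0.21) and Stard4 (0.74 ± 0.20). Insig2 was the one sensing gene to pass (0.77 ± 0.16) and Soat1 the one efflux-list gene (0.91 ± 0.18). Of the fatty acid genes 5 of 11 were higher, with Scd1 at 2.75 ± 0.30, Scd2 at 1.52 ± 0.24, Fasn at 1.00 ± 0.18 and Elovl6 at 1.18 ± 0.22. In cluster 10, 17 of 51 were lower and 6 higher, where 9.76% of all tested genes were lower and 17.9% higher, so that the share of higher genes was below that of all genes. Hsd17b7 (-1.43 ± 0.31), Fdft1 (-0.99 ± 0.24), Srebf2 (-1.10 ± 0.26), Stard4 (-1.15 ± 0.24) and Lrp8 (-0.95 ± 0.25) were lower. Mylip, a ubiquitin ligase of the uptake list, was higher there (1.19 ± 0.22), as were Cyp27a1 (1.5 ± 0.38), Scap (0.98 ± 0.21) and Tm7sf2 (0.96 ± 0.28). Me1 (-1.41 ± 0.23), Fasn (-1.20 ± 0.23), Acly (-1.08 ± 0.28) and Elovl6 (-0.94 ± 0.26) were among the 5 of 11 fatty acid genes that were lower, while 2 were higher.

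The 8 genes did not all move alike. Over the 22 clusters with at least 20 cells in each mouse, Pearson's r between log2 levels of members (with 10 CPM added) ranged from 0.26 to 0.93 in 28 pairs, with a median of 0.66; the clusters share libraries and differ in depth, so r is a description. Idi1 and Msmo1 were the closest pair at 0.93, then Hmgcs1 and Idi1 at 0.91, and the lowest value was that of Fdps and Lss, at 0.26. Against the mean of the 8, each put on a common scale, the most alike of 8682 genes compared were Lgi4 (0.93), Nab2 (0.92), S100b (0.91), Fxyd3 (0.91), Slc22a23 (0.91), Cmtm5 (0.90), Kif21a (0.89), Srebf2 (0.89), Kcna6 (0.88) and Moxd1 (0.88). Left without the Schwann-like cluster, r was between 0.85 and 0.93 for these 10. By single member, Srebf2 was the most alike for Sqle (0.90) and the second for Cyp51 (0.86), Phlda1 for Insig1 (0.83), Lyrm4 for Fdps (0.80), Nrbf2 for Lss (0.76) and Micall2 for Msmo1 (0.94).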

How the data were processed

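Single-cell libraries of 2 mice, 1 per mouse, were analysed. The authors deposited unnormalized counts per gene and barcode, taken here as UMI counts; STAR (no version), Cell Ranger 7.0.0 and GRCm39 are named per the submitters' processing notes, and no source used here gives the annotation. Mouse 1 had 95844802 UMIs and mouse 2 86049057. Of barcodes with at least 1000 UMIs (14369 and 10017), those with at least 300 genes and at most 15% mitochondrial UMIs were kept. Scrublet called 0 and 1 doublets, so the highest scores were removed at 0.8% per 1000 cells (1599 and 750 barcodes).

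Clustering (scanpy 1.11.5, leidenalg 0.10.2; 2000 variable genes, 30 components, 15 neighbours, resolution 1) used 27495 genes. The other 29458, the 8 genes and the pathway lists among them, were held out, and only these were tested. Clusters were named from marker lists; the naming thresholds were chosen with the clusters in view. Clusters 5 and 15 stayed unnamed, and clusters 19, 23 and 24 had under 20 cells in a mouse.

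Counts were summed per mouse and class (26 sums) or cluster (44 sums) and tested with edgeR 4.0.16 (quasi-likelihood, TMM, low-count filter, mouse as a block, as each animal gave all its sums; Benjamini-Hochberg over all tested genes; R 4.3.3). DESeq2 1.42.0 was an alternative. On simulated counts for chondrocyte-like against fibroblast-like cells (4999 genes), 32 of 100 genes changed 2-fold and 94 of 100 changed 4-fold were recovered, with 1 unchanged gene called. All simulated sums came from 1 pooled profile with a fixed spread, no mouse effect and no class differences but the planted ones. The recovery and false calls therefore hold for that setting and do not carry over to the real counts. Named genes were the 8, up to 4 per pathway list and comparison with the smallest p, and the most correlated genes. The members, lists and comparisons were chosen with earlier results of these data known. The floor for a level, a count of 3, was 0.0771 and 0.0825 CPM in chondrocyte-like cells and 6.86 and 5.92 CPM in Schwann-like cells. Some genes of the lists are counted in these totals but not reported here by name.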

Additional observations from a re-analysis of the deposited data

How the results depend on the processing

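In the comparison of chondrocyte-like with fibroblast-like cells, 1676 genes were called, 12.0% of the tested genes being higher and 12.9% lower. The count was 2683 without the filter on low counts. It was 5977 in a fit of these 2 classes alone, where 8 of the 8 genes were higher. Without the mouse as a block it was 1190, and 5 of the 8 genes were higher, Sqle being lost (adjusted p = 0.0651). The median change of all genes was -0.10 with TMM and 0.001 with DESeq2 size factors, and 6 of the 7 tested genes were higher under both. Shares of all genes that were higher are not given for the alternative fits. Their counts of the 8 genes are therefore not read as results about these genes. Among chondrocyte-like clusters the calls of the 8 genes fell to 8 without the replicate block, where 13 passed with it, and those of cluster 7 to 2. Among fibroblast-like clusters they were 4 without the filter on low counts and 0 without the replicate block.

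With 1 mouse left out no residual spread remains, so there is a value but no test. The median log2 fold change of the genes tested then ranged from 1.19 to 1.87 for chondrocyte-like against fibroblast-like cells, from 2.03 to 2.58 for Schwann-like and from 1.49 to 2.16 for chondrocyte-like cells against the other classes. It ranged from 0.71 to 0.77 for cluster 7 and from -1.21 to -0.92 for cluster 10.

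Over 43 single results, 373 of 402 values with a test kept direction and side of the threshold, 28 lost the call, 13 of them without the replicate block, and 1 gained it. The other 86, with 1 mouse left out, have no test. Of all 488, 0 changed direction. The cause was not tested. Putting barred clusters back and leaving out shared barcodes were alternatives chosen after seeing the data. With 2 mice, small classes rest on few UMIs of these genes, and Lss could not be compared between classes.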

Other observations

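Cluster 15, which stayed unnamed and was led by Igfbp3, Lrrc15, Acta2 and Robo2, held 129 cells of mouse 1 and 149 of mouse 2. It had 55.04 and 45.6 CPM of Hmgcs1, 53.9 and 35.4 CPM of Fdps and 28.6 and 30.4 CPM of Sqle. Its Cyp51 level differed between the mice, at 49.5 CPM (45 UMIs) in mouse 1 and 15.2 CPM (18 UMIs) in mouse 2. Cluster 5 held 857 and 694 cells, and stayed unnamed because Pecam1 was among its leading genes although the fibroblast list was its highest. It had 53.6 and 28.4 CPM of Hmgcs1 and 16.4 and 9.12 CPM of Msmo1, where the fibroblast-like class had 46.9 and 22.1 CPM and 18.1 and 9.87 CPM.

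In endothelial-like cells the 8 genes summed to 270.4 CPM in mouse 1 and 91.3 CPM in mouse 2, and the 5 chondrocyte markers to 4350 and 468.4 CPM.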
